A study of Mus musculus with 15 samples.

Results

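The 65 genes described here belong to gene families named for germ cells and meiosis, and were followed in newborn and 7 dpn ovaries that carried or lacked *Foxl2*, the gene of a forkhead factor of the supporting cells around the oocyte. The rule picks the genes by name and the probe of each gene by its ovary signal, and it was chosen with earlier results of these data known. Of the 20657 probes that the array names by a RefSeq accession, 15294 could be given a current mouse symbol, of 12254 genes, and among these the families of *Sycp*, *Syce*, *Tdrd*, *Piwil*, *Spata*, *Spag*, *Tex* and *Nlrp* genes with *Mael*, *Zp1* to *Zp3*, *Dazl*, *Ddx4*, *Nobox*, *Stra8*, *Dmc1*, *Msh4* and *Msh5* were kept. One gene of the *Sycp* family was left out by the rule. The 65 genes had 88 probes, and each of the 20 genes with several probes is given by the brightest. The RefSeq table lists 127 protein-coding genes that fit these names, so the remainder had no probe that could be named and were not analysed here. Levels are log2 ratios of ovary over reference RNA, and a call is an adjusted p under 0.05 in limma with Benjamini-Hochberg adjustment over all probes tested.

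Ovary RNA was hybridized to 15 arrays, 9 of newborn and 6 of 7 dpn females. Each genotype, *Foxl2*-/- (null), *Foxl2*+/- (heterozygous) or wild-type, had 3 arrays at birth and 2 at 7 dpn. The methods describe individual newborn mice and pools of mice at 7 dpn, on a mixed 129S6/SvEvTac and NIH-Swiss/BC background, and labels name the strain NIHS-BC. Cy3 carried the ovary on every array and Cy5 carried the same Universal Mouse Reference RNA, a pool from cell lines that include one of testis origin, and the dyes were never swapped, so that the ratio of a gene holds a dye effect and only differences between groups are compared. The null allele was carried by the whole animal, by somatic and germ cells alike.

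On each array the ovary signal of 93.2 to 96.5% of probes was well above background, and arrays of the same group correlated across probes with r from 0.894 to 0.964. The *Foxl2* probe gave group means between -0.32 and -0.25 in all 6 groups, null included, and so gave no check of the genotype labels. Newborn and 7 dpn arrays were extracted from their images on different days, so age and extraction day cannot be told apart. Newborn wild-type replicate 1 was the highest of the wild-type newborns, with a mean log2 ratio of 1.75 over 9 granulosa markers against 1.21 and 1.46. These values were about evenly spread and do not by themselves mark it as an outlier. It also had the highest *Nlrp2* ratio, given below. Several results that rest on it are given with and without it. Others, such as those at birth and with age of the oocyte genes outside the families, are given only with it. In whole ovaries, fewer germ cells and less RNA per germ cell cannot be told apart.

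In the fetal ovary, germ cells enter meiosis under *Stra8*, pair their chromosomes along the synaptonemal complex and exchange DNA through the recombinase DMC1 and the MutS proteins MSH4 and MSH5. Around birth they arrest in late prophase and become enclosed in primordial follicles. Those that begin to grow build the zona pellucida from ZP1, ZP2 and ZP3 and store maternal products, several of them NLRP proteins of the egg cortex, under oocyte factors such as NOBOX. PIWI proteins and the tudor domain proteins that dock on them keep transposons silent in germ cells, in cytoplasmic granules called nuage that also hold the helicase DDX4. The *Spata*, *Spag* and other *Tex* genes were for the most part named after testis or sperm, and the families also hold genes with work outside the germ line, such as *Spag5* of the mitotic spindle and the inflammasome sensors *Nlrp3* and *Nlrp6*.

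Ratio levels are given for the brightest probe only and are not ranked between genes, since each holds its own dye effect and other probes of a gene can differ (*Piwil2* had medians of 5.11 and -0.09, *Ddx4* of 2.00 and 3.55). The ovary signal was well above background on all 15 arrays for 63 of the 65 members, the exceptions being *Nlrp2*, dim on newborn heterozygous replicate 3, and *Tex13a*. The reference signal of *Tex12* was not well above background on any array, so its level is only a lower bound. Of the smaller families, *Syce2* lay between 0.97 and 1.96 over the arrays, *Sycp2* between 2.95 and 4.55, *Mael* between 3.92 and 4.52, *Piwil2* between 4.61 and 5.56 and *Piwil1* between 0.045 and 0.23. Of the *Nlrp* genes, *Nlrp4b* lay between 3.72 and 6.13, with a reference well above background on only 6 arrays so that the other ratios are lower bounds, *Nlrp5* between 3.46 and 4.20 on 13 arrays and at least 2.67 on 7 dpn heterozygous replicate 2, where its ovary spot was saturated, and *Nlrp4a* between -0.0035 and 0.96, whereas *Nlrp3* kept between -0.078 and 0.10 and *Nlrp6* between -0.32 and 0.82. *Msh4* lay between 1.48 and 2.20 and *Msh5* between -1.36 and -0.36.

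**Figure D1:**
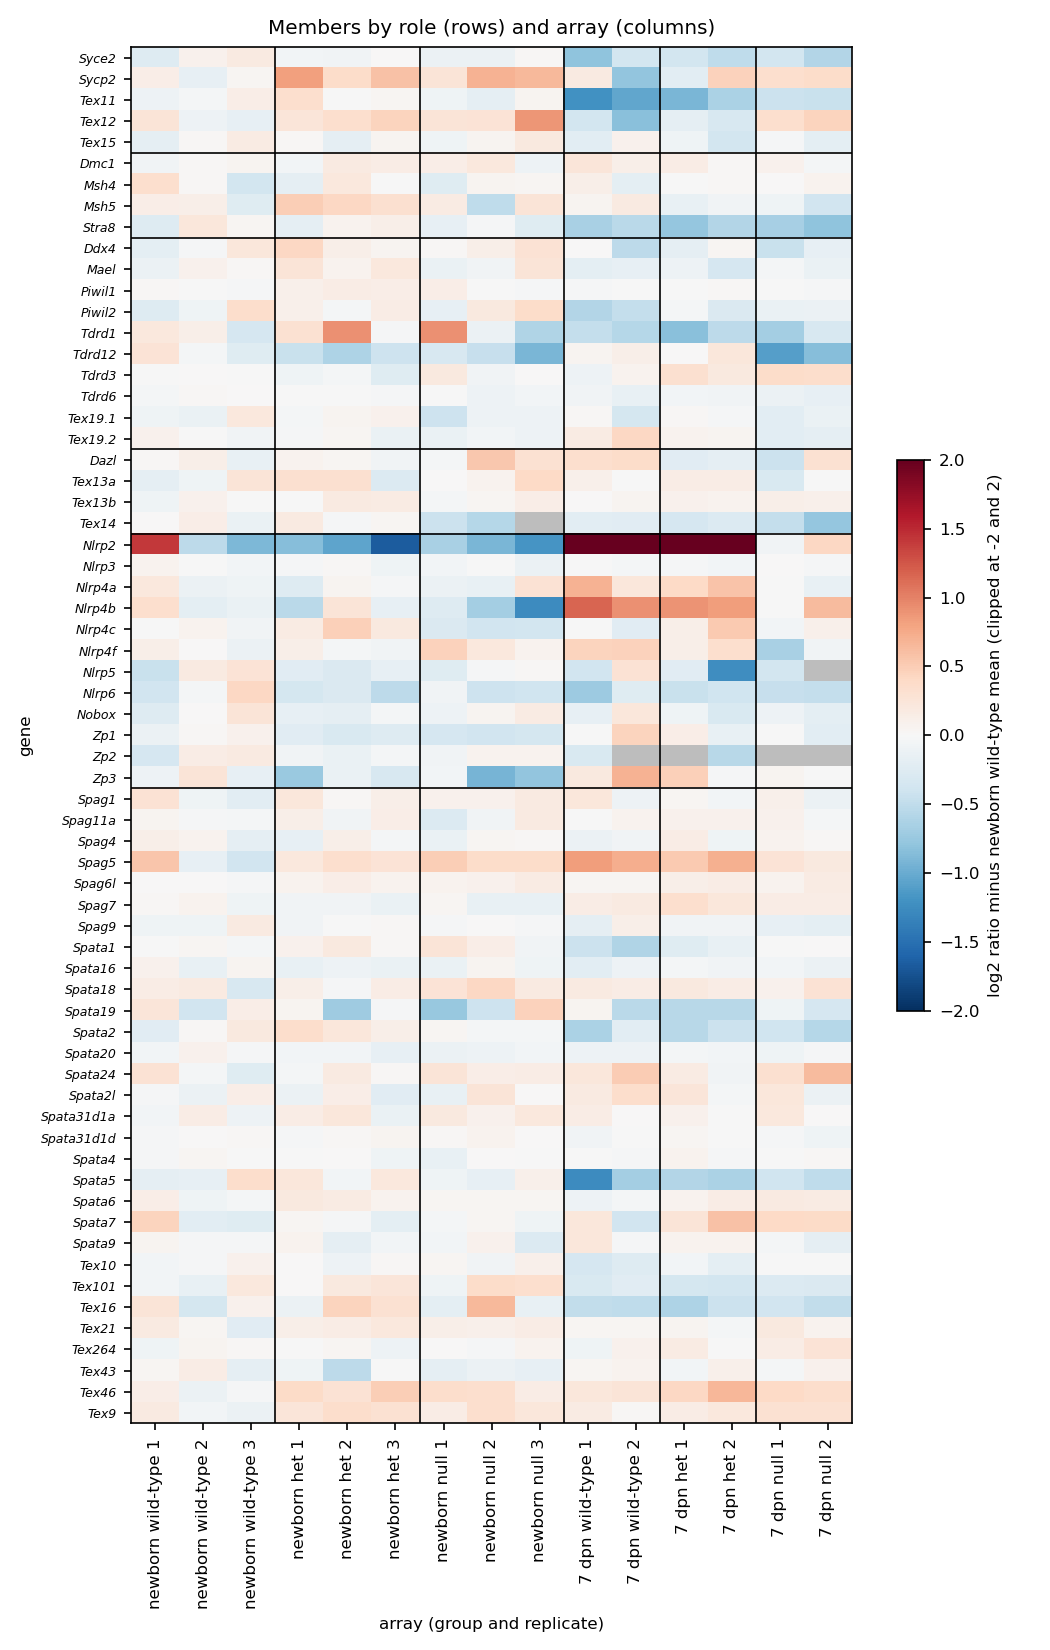
Log2 ratio of each of the 65 members (rows, by role) on each of the 15 arrays (columns), as the difference from the mean of the 3 newborn wild-type arrays, with colors clipped at -2 and 2 and missing values in grey. *Nlrp2* stands out in the 7 dpn wild-type and heterozygous arrays and in newborn wild-type replicate 1, and most *Spata*, *Spag* and other *Tex* rows stay pale.

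The first comparison asked which members differ where *Foxl2* is absent after follicles have begun to grow. In 7 dpn null ovaries 2 *Nlrp* genes of the oocyte and 2 genes of the piRNA group were lower than in wild-type, and the synapsis gene *Tex11* was higher. Of 64 members tested, 8 were called, 4 lower and 4 higher, which is 12.5% of the members beside 5.52% of all probes. One of the 4 higher calls, *Tex12*, is a ratio over a reference that was at background on every array. The median difference over the members was 0.0048 on the log2 scale (all probes, 0.010), with 33 higher and 31 lower. The balance of the calls changed with the scaling: 7 were higher and 2 lower with median centring, 8 and 4 with normexp and 7 and 4 with the series values. Of the 8 members, 5 were also called with median centring, 7 with normexp and 5 with the series values, and *Piwil2*, *Spata5*, *Spag5* and *Tex10* were called in addition under all 3. By role, 2 of 5 synaptonemal complex and synapsis genes were called higher, *Tex11* and *Tex12* (median of the group, 0.66). Of 11 *Nobox*, *Zp* and *Nlrp* genes 2 fell (median -0.32, or -0.42 over the 9 that are left without the inflammasome sensors *Nlrp3* and *Nlrp6*). Of 10 genes in the piRNA and nuage group 1 rose, *Tdrd3*, which is in it by family name, and 2 fell (median 0.0005). Of 30 *Spata*, *Spag* and other *Tex* genes 1 rose (median 0.041). None of the 4 genes of recombination and meiotic entry or the 4 of germ cell RNA binding and bridges was called, with 0 and 1 at an unadjusted p under 0.05. The number called fell to 0 without null replicate 1, to 2 without null replicate 2, to 5 without wild-type replicate 1 and to 2 without wild-type replicate 2 of this age.

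*Nlrp2*, a maternal effect gene of the oocyte, had log2 ratios of 2.84 and 2.82 in 7 dpn wild-type ovaries, 2.50 and 2.84 in heterozygous and 0.22 and 0.71 in null ovaries. The null arrays lay below all others of this age. The difference between null and wild-type was -2.36 ± 0.59 (SE), 5.14-fold, with an adjusted p of 0.0403. That call was close to its threshold: it was made in 3 of 15 fits that each left out 1 array, and without newborn wild-type replicate 1, whose value widened the pooled spread, the adjusted p was 0.000716. It was also lost with median centring. *Nlrp4f*, another *Nlrp* gene of the egg, had 4.07 and 4.08 in wild-type, 3.74 and 3.96 in heterozygous and 2.97 and 3.56 in null ovaries. Groups of null and wild-type again did not overlap, and the fall was -0.81 ± 0.18 (SE, adjusted p = 0.0221). This call was lost without null replicate 1 or either wild-type array of this age. It was also lost in 5 of the 11 other settings: normexp, median centring, the ovary channel alone (-0.25), the series values and a fit to only the arrays of this age, heterozygous included.

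Among the piRNA genes, *Tdrd12*, a tudor protein of secondary piRNA production, had log2 ratios of 2.94 and 3.00 in 7 dpn wild-type, 2.89 and 3.11 in heterozygous and 1.78 and 2.03 in null ovaries. Both null arrays lay below all others of this age. *Tdrd12* fell by 1.07 ± 0.20 (SE, adjusted p = 0.00977), a 2.10-fold difference, and the call was kept in 13 of 15 fits that left out 1 array, all but those without null replicate 1 or wild-type replicate 2 of this age. It was lost with median centring (adjusted p = 0.138) and with the series values (adjusted p = 0.0971). *Tex19.2*, a relative of the transposon repressor *Tex19.1*, was at 0.31 and 0.55 in wild-type, 0.21 and 0.19 in heterozygous and -0.08 and -0.05 in null ovaries, so that the genotypes did not overlap, and fell by 0.49 ± 0.08 (SE, adjusted p = 0.00681). Its call was lost without either null array of this age, in the ovary channel alone and in a fit to only the arrays of this age. *Tdrd3*, a reader of methylated arginine that is also used outside the germ line, was counted in the piRNA group by its family name alone. It was higher by 0.38 ± 0.09 (SE, adjusted p = 0.0396), with 1.98 and 2.14 in wild-type and 2.45 and 2.43 in null ovaries. It was called in 7 of the 15 fits that left out 1 array, and not in those without any 1 of the 4 arrays compared. It was also lost with the replicate block, the running mean, the ovary channel alone and only the arrays of this age.

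*Tex11*, a gene of the X chromosome needed for synapsis and crossing over, had log2 ratios of 1.42 and 1.58 in 7 dpn wild-type ovaries, 1.70 and 1.99 in heterozygous and 2.19 and 2.18 in null ovaries. The null arrays were highest, the wild-type arrays lowest and the heterozygous arrays between them, with no overlap. The difference between null and wild-type was 0.68 ± 0.13 (SE, adjusted p = 0.0132). The call was lost without either null array or wild-type replicate 1 of this age and in a fit to only the arrays of this age. For *Tex12*, of the central element of the synaptonemal complex, the reference was at background, so that the ovary channel alone (log2 intensity) is given, with 10.14 and 8.74 in wild-type, 10.23 and 10.84 in heterozygous and 10.71 and 10.85 in null ovaries. Null and wild-type arrays did not overlap, null and heterozygous arrays did, and the difference between null and wild-type of 1.34 was not called (adjusted p = 0.0913). The ratio of *Tex12* was called (adjusted p = 0.0236), though not without either null array or wild-type replicate 2 of this age. Nor was it called in the series values (adjusted p = 0.57) or with only the arrays of this age. *Sycp2*, of the axial element, differed by 0.66 ± 0.30 (SE, adjusted p = 0.288), and *Syce2* and *Tex15* were not called. *Spata1*, a gene of sperm development, had 0.36 and 0.18 in wild-type, 0.53 and 0.63 in heterozygous and 0.78 and 0.80 in null ovaries, again without overlap, and rose by 0.52 ± 0.10 (SE, adjusted p = 0.0124). Its call was lost without either null array or wild-type replicate 2 of this age, in the ovary channel alone and with only the arrays of this age.

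**Figure D2:**
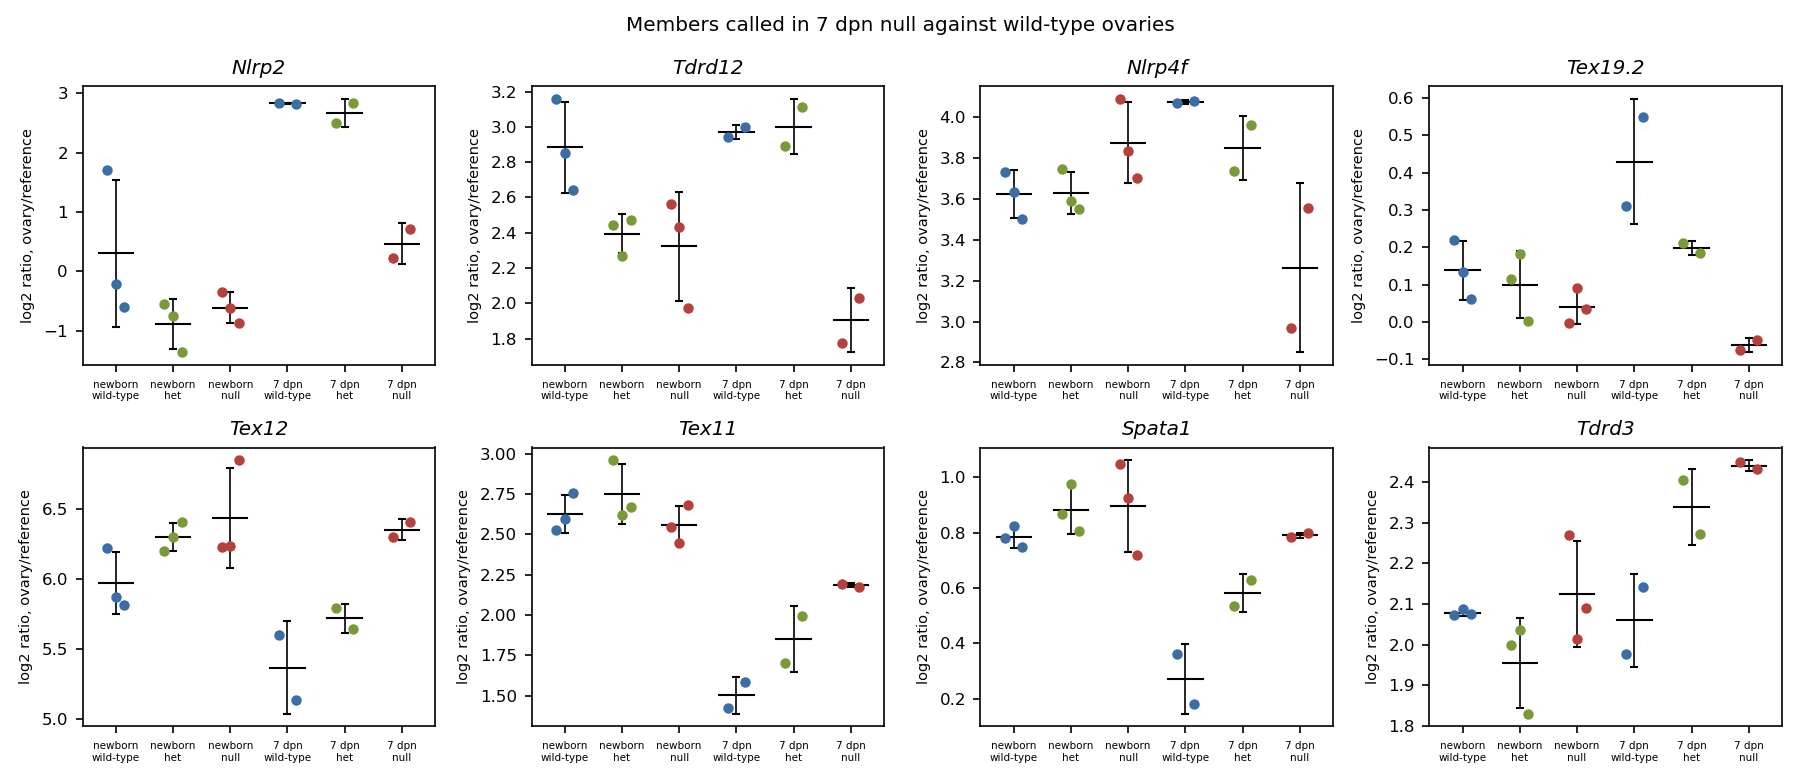
Log2 ratio of ovary over reference in every array for the 8 members called between 7 dpn null and wild-type ovaries, by group, with points for arrays, long bars for the group mean and error bars for 1 SD. The vertical scales differ between genes. For *Nlrp2*, *Tdrd12*, *Nlrp4f* and *Tex19.2* the 7 dpn null arrays lie lower than wild-type, and for the other 4 genes they lie higher, where the *Tex12* ratios rest on a reference at background.

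Of the 4 members that fell in 7 dpn null ovaries the 250 bases before the RefSeq transcription start are shown (GRCm38.p6, all on the minus strand, printed from 5′ to 3′ along the gene). They were searched on both strands for the E-box CANNTG, which basic helix-loop-helix factors of the oocyte such as FIGLA bind, for the NOBOX element TAATTG and for the forkhead core TGTTTA, and capitals mark a match. The windows are *Nlrp2* at chr7:5351036-5351285, *Nlrp4f* at chr13:65205717-65205966, *Tdrd12* at chr7:35537716-35537965 and *Tex19.2* at chr11:121118678-121118927.
Nlrp2: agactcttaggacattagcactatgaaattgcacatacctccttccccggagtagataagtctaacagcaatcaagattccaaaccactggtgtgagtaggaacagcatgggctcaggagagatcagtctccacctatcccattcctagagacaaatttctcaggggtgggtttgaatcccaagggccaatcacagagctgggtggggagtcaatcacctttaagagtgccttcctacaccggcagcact
Nlrp4f: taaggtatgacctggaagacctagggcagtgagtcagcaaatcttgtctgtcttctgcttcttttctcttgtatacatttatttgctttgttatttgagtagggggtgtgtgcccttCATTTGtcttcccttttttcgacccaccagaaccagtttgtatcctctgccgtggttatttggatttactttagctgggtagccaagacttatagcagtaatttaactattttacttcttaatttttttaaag
Tdrd12: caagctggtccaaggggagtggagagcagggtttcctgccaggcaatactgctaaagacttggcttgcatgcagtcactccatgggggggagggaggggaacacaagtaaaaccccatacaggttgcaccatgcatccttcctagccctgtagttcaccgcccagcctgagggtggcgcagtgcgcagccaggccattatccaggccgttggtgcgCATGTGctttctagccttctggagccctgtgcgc
Tex19.2: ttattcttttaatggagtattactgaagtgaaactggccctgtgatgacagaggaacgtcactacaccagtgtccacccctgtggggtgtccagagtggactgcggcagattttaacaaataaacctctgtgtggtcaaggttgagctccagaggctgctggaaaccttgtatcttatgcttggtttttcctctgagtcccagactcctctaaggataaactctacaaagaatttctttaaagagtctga
*Nlrp4f* and *Tdrd12* each held 1 E-box, and *Nlrp2* and *Tex19.2* held none. The window of the other RefSeq start of *Tdrd12*, at chr7:35537745-35537994, held none either. Neither of the other motifs was found in these 4 windows. The 53 members in the table had 66 windows, some with several starts. Of these windows 43 (65.2%) held an E-box, beside 66.2% of all 32851 windows of this length, 1 (1.5%), of *Spag9*, held the NOBOX element, beside 7.2%, and 6 (9.1%) held the forkhead core, beside 12.03%. A match is a description of the sequence, not of binding.

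Markers of somatic cells moved with genotype at the same age, where 5.52% of all probes were called between null and wild-type. Of 9 granulosa markers 5 fell in 7 dpn null ovaries, and the mean log2 ratio of the list was between 2.03 and 2.23 in wild-type and between 0.98 and 1.04 in null ovaries. Of 5 steroidogenic markers 3 fell. Of 5 Sertoli markers 1, *Sox9*, rose, and the list mean went from between 0.77 and 1.00 to between 1.32 and 1.49. Of 7 oocyte markers, 3 of them members, 5 were measured on every array, and their mean was between 4.27 and 4.37 in wild-type, 4.18 and 4.31 in heterozygous and 3.84 and 3.91 in null ovaries, so that null arrays lay below the others. Of the 6 tested 1, *Bmp15*, fell, and the median difference was -0.41. Of 12 spermatid and sperm markers 1, *Ldhc*, was called and lower. Of 3 markers of mesonephric or oviduct epithelium 1, *Pax8*, rose, and none of 6 ciliated, 3 endothelial and 3 blood markers was called, although the mean of the endothelial list was lower in null (0.46 to 0.53) than in wild-type ovaries (0.78 to 0.99). The part of these cells in the members' differences was not tested.

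Heterozygous ovaries showed no called member at either age. At 7 dpn, 0 of 65 members were called against wild-type by limma (0.061% of all probes), with 8 at an unadjusted p under 0.05, and *Tdrd3* was at 2.40 and 2.27 against 1.98 and 2.14 in wild-type, a difference of 0.28 ± 0.09 (SE, adjusted p = 0.385). *Dazl* had 3.89 and 3.92 in heterozygous and 4.44 and 4.47 in wild-type ovaries, a difference of -0.55 ± 0.21 (SE, adjusted p = 0.479) that turned to 0.044 in the ovary channel alone. For both genes the groups did not overlap, but neither difference passed the test. The lowest p-values were those of *Nlrp4c*, with a difference of 0.44 (adjusted p = 0.348), and *Spata1*, with 0.31 (adjusted p = 0.36), ahead of *Tdrd3*. Between null and heterozygous ovaries of this age 1 of 64 members was called (2.19% of all probes), *Tdrd12*, with a difference of -1.10 ± 0.20 (SE, adjusted p = 0.0158). That call was lost without null replicate 1 or 2 or without either heterozygous array of this age, and with median centring, the ovary channel alone and the series values. *Nlrp2* was not called with all arrays (adjusted p = 0.0976). It was called without newborn wild-type replicate 1, at -2.20 (adjusted p = 0.0019), with normexp and with only the arrays of this age. *Nlrp4f* differed by -0.59 (adjusted p = 0.151).

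At birth few members differed by genotype. Between newborn null and wild-type ovaries 1 of 65 members was called (1.62% of all probes), *Tex14*, whose log2 ratios were 2.82, 2.94 and 2.68 in wild-type and 2.39 and 2.24 in the 2 null arrays on which it was measured. The groups did not overlap, and *Tex14* fell by 0.50 ± 0.10 (SE, adjusted p = 0.0447), a call made in 4 of 15 fits that left out 1 array and in none of those without a null array of this age. Without newborn wild-type replicate 1, 3 members were called (*Spag5*, *Tex14* and *Tex9*). The count was 0 in 11 of the 15 fits, those without any newborn null or heterozygous array, newborn wild-type replicate 2 or any 7 dpn heterozygous or wild-type array. *Tdrd12* was at 3.16, 2.85 and 2.64 in wild-type, 2.44, 2.27 and 2.47 in heterozygous and 2.57, 2.43 and 1.97 in null newborns. The wild-type newborns lay above the others, and the differences were -0.56 (adjusted p = 0.143) for null and -0.49 (adjusted p = 0.224) for heterozygous ovaries. *Zp1* differed by -0.36 between null and wild-type newborns (adjusted p = 0.177), but was called in 4 of the 11 other settings. These gave -0.56 with normexp (adjusted p = 0.0306), -0.35 in the series values (adjusted p = 0.0435), -0.36 with only the newborn arrays (adjusted p = 0.0405) and -0.60 as the mean of its probes (adjusted p = 0.00466).

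Newborn heterozygous ovaries gave 0 of 65 calls against wild-type in limma (0.0244% of all probes), with 10 members at an unadjusted p under 0.05. The lowest p-values were those of *Tex46*, at 0.39 (adjusted p = 0.141), and *Tex9*, at 0.30 (adjusted p = 0.162). Without newborn wild-type replicate 1 the members called were 4 (*Spag5*, *Spata6*, *Tex46* at 0.46 and *Tex9* at 0.39). Between newborn null and heterozygous ovaries 1 of 65 was called (0.383% of all probes), *Nlrp4c*, with 1.91, 2.22 and 1.93 in heterozygous and 1.45, 1.37 and 1.37 in null ovaries. Its arrays did not overlap, and the difference was -0.62 ± 0.11 (SE) with an adjusted p of 0.0496, on the edge of the threshold and past it in 2 of 15 fits that left out 1 array. The count was 0 in the other 13 fits, all but those without a 7 dpn heterozygous array. *Tex14* differed by -0.56 (adjusted p = 0.0613) and *Msh5* by -0.44 (adjusted p = 0.49).

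The next comparisons asked what changed in the first week after birth. In wild-type ovaries 9 of 65 members were called between birth and 7 dpn, 3 higher and 6 lower, 13.8% of the members beside 8.72% of all probes, with a median of -0.028 (all probes, -0.011). All 5 synaptonemal complex and synapsis genes had a negative difference and 2 of them were called. Of 12 *Nobox*, *Zp* and *Nlrp* genes (10 without *Nlrp3* and *Nlrp6*) 1 was called higher, as was 1 of 10 piRNA genes. Of 4 genes of recombination and meiotic entry 1, *Stra8*, was called lower. Of 30 *Spata*, *Spag* and other *Tex* genes 4 were called (1 higher, 3 lower). *Tex11* went from 2.53, 2.59 and 2.76 at birth to 1.42 and 1.58 at 7 dpn. It fell by 1.12 ± 0.12 (SE, adjusted p = 0.00121), 2.18-fold, and the call was kept in all 15 fits that left out 1 array. *Stra8*, the retinoic acid target that starts meiosis, was at 0.27, 0.75 and 0.56 in newborns and at -0.12 and -0.01 at 7 dpn, a fall of 0.59 ± 0.14 (SE, adjusted p = 0.0243), and *Syce2*, of the central element, fell by the same amount (0.59 ± 0.14, SE, adjusted p = 0.0302).

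*Nlrp2* rose with age. Its newborn wild-type values were 1.72, -0.22 and -0.59 and its 7 dpn values 2.84 and 2.82. Replicate 1 lay well above the other newborns but below both older arrays, and the rise was 2.53 ± 0.54 (SE, adjusted p = 0.0161), or 3.24 (adjusted p = 9.91e-05) without that replicate. *Spata5*, an AAA ATPase of ribosome assembly, went from 1.82, 1.84 and 2.37 to 0.75 and 1.33 and fell by 0.97 ± 0.19 (SE, adjusted p = 0.0116). *Spata1* fell by 0.51, *Tex10*, a subunit of a ribosome assembly complex, by 0.29, whereas *Tex19.2* rose by 0.29 and the spindle gene *Spag5* by 0.78. The calls of *Tex19.2* and *Spag5* were each made in 4 of 15 fits that left out 1 array, and both were lost, as was that of *Syce2*, with the replicate block. Those of *Stra8* and *Tex10* were each made in 11 of these 15 fits and were lost in the ovary channel alone. The number called was 15 without newborn wild-type replicate 1, 3 without replicate 2 and 4 without replicate 3, and 3 and 4 without 7 dpn wild-type replicate 1 and 2, and *Tex11* was called in each of these. No member, *Tex11* included, was called in a fit to only the wild-type arrays.

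In heterozygous ovaries 8 of 65 members were called with age, 3 higher and 5 lower (12.3% of the members, 8.31% of all probes). *Nlrp2* went from -0.54, -0.75 and -1.36 to 2.50 and 2.84, a rise of 3.56 ± 0.54 (SE, adjusted p = 0.00287) that was called in every fit that left out 1 array, as was the fall of *Tex11* by 0.90 ± 0.12 (SE, adjusted p = 0.00165). The other calls were *Spata5*, *Stra8*, *Spata2*, an adaptor of inflammatory signalling, and *Tex101*, a surface protein of male germ cells, which were lower by 0.51 to 0.73, and *Spag7* and *Tdrd3*, which were higher by 0.37 and 0.38. The calls of *Spata5*, *Tdrd3* and *Tex101* were lost with the replicate block. Normexp gave 8 higher of 15 and the series values 6 higher of 12. Without newborn null replicate 3 the count was 13, without newborn heterozygous replicate 3 it was 5, and without 7 dpn heterozygous replicate 1 and 2 it was 2 and 5. In null ovaries 1 of 64 members was called with age (3.26% of all probes), *Stra8*, from 0.36, 0.50 and 0.28 to -0.13 and -0.27, a fall of 0.59 ± 0.14 (SE, adjusted p = 0.0457). This call was made in 3 of 15 fits that left out 1 array, and the count ran from 0 to 3, with 3 without newborn null replicate 1 (*Spag7*, *Tdrd3* and *Tex101*), 2 without newborn wild-type replicate 1 (*Nlrp2* and *Stra8*), 1 without newborn heterozygous replicate 1 or wild-type replicate 2, and 0 in the other 11. *Nlrp4f* differed by -0.61 (adjusted p = 0.0698) and *Tdrd3* by 0.32 (adjusted p = 0.0803). *Nlrp2* went in null ovaries from -0.35, -0.61 and -0.88 to 0.22 and 0.71, a difference of 1.08 that did not pass the test with all arrays (adjusted p = 0.382) and did without newborn wild-type replicate 1 (adjusted p = 0.0395).

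**Figure D3:**
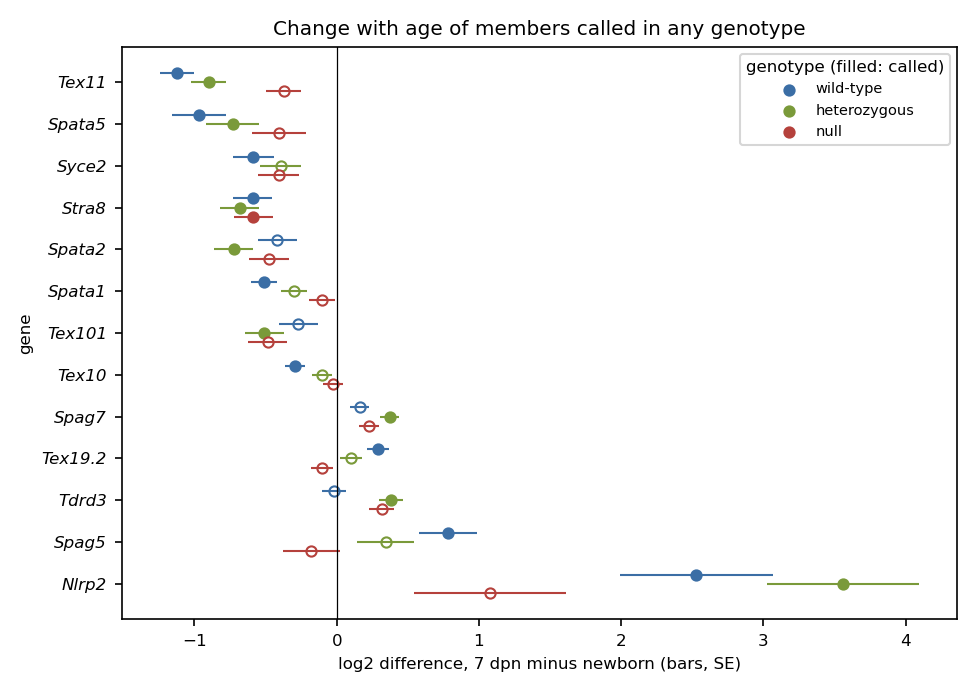
Difference in log2 ratio between 7 dpn and newborn ovaries (horizontal axis, with SE) for the 13 members called with age in any genotype, in wild-type, heterozygous and null ovaries, filled where called. *Stra8* is between -0.68 and -0.59 in all 3 genotypes, and *Nlrp2* and *Tex11* are closer to 0 in null ovaries than in the others.

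Whether the genotype effect changed between the ages was tested as an interaction. No member was called in limma for null ovaries (0 of 64; 0.185% of all probes), with 10 at an unadjusted p under 0.05, nor for heterozygous ovaries (0 of 65; 0.00244% of all probes), with 2. The null effect at 7 dpn less that at birth was -1.06 ± 0.23 (SE, adjusted p = 0.114) for *Nlrp4f*, 0.75 ± 0.17 (SE, adjusted p = 0.139) for *Tex11*, -0.96 ± 0.29 (SE, adjusted p = 0.233) for *Spag5* and -1.45 (adjusted p = 0.556) for *Nlrp2*, and *Tex19.2* gave -0.39 (adjusted p = 0.203). For heterozygous ovaries the lowest p-values were those of *Tdrd3*, at 0.40 (adjusted p = 0.596), *Msh5*, at -0.64 (adjusted p = 0.658), and *Spag7*, at 0.21 (adjusted p = 0.678). Without newborn wild-type replicate 1, 4 members passed the threshold for null ovaries, *Nlrp2* at -2.16 (adjusted p = 0.0165), *Nlrp4f* at -1.12 (adjusted p = 0.0391), *Spag5* at -1.23 (adjusted p = 0.0021) and *Tex11* at 0.80 (adjusted p = 0.0449), and for heterozygous ovaries *Spag5* alone was then called. For null ovaries the calls of *Nlrp2*, *Nlrp4f* and *Spag5* were made only without that array, and that of *Tex11* also in the series values. The differences of these genes kept their sign.

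Since every array carried the same reference RNA, its channel could be read on its own, with each channel quantile normalized over the arrays. For several members it was not level. *Zp3* had reference values (log2 intensity) of 9.22, 8.72 and 8.61 in newborn wild-type and 9.81 and 9.56 in 7 dpn wild-type ovaries, but 8.61 and 8.84 in 7 dpn null ovaries. The ovary values of the same arrays were 13.44, 13.24 and 12.59, then 14.01 and 14.43, and then 12.94 and 13.09. Both channels were lower in 7 dpn null than in wild-type ovaries, with no overlap in either.

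Among the members whose reference was well above background on every array, the reference values spanned 8.40-fold for *Zp2* (11 arrays), 6.60-fold for *Zp1*, 4.04-fold for *Tex13b*, 3.81-fold for *Spata18* and 3.77-fold for *Zp3*, the widest ranges. As a description, without a test, they followed the ovary values with r of 0.994, 0.991, 0.993, 0.95 and 0.914. Over all probes the median of this r was 0.825 and over the members 0.811, and the points of an array share its spot and its scan. The SD of the reference channel had a median of 0.212 over all probes, 0.255 over the members, and 5 members (*Zp1*, *Zp2*, *Zp3*, *Tex13b* and *Nlrp4b*) were above the 95th percentile of all probes (0.498), *Nlrp4b* with a reference well above background on only 6 arrays. In tests of the reference channel alone no member was called in any of the 11 comparisons by limma, with 6 at an unadjusted p under 0.05 for null against wild-type at 7 dpn and 9 for age in wild-type. What moved the reference channel was not tested.

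**Figure D4:**
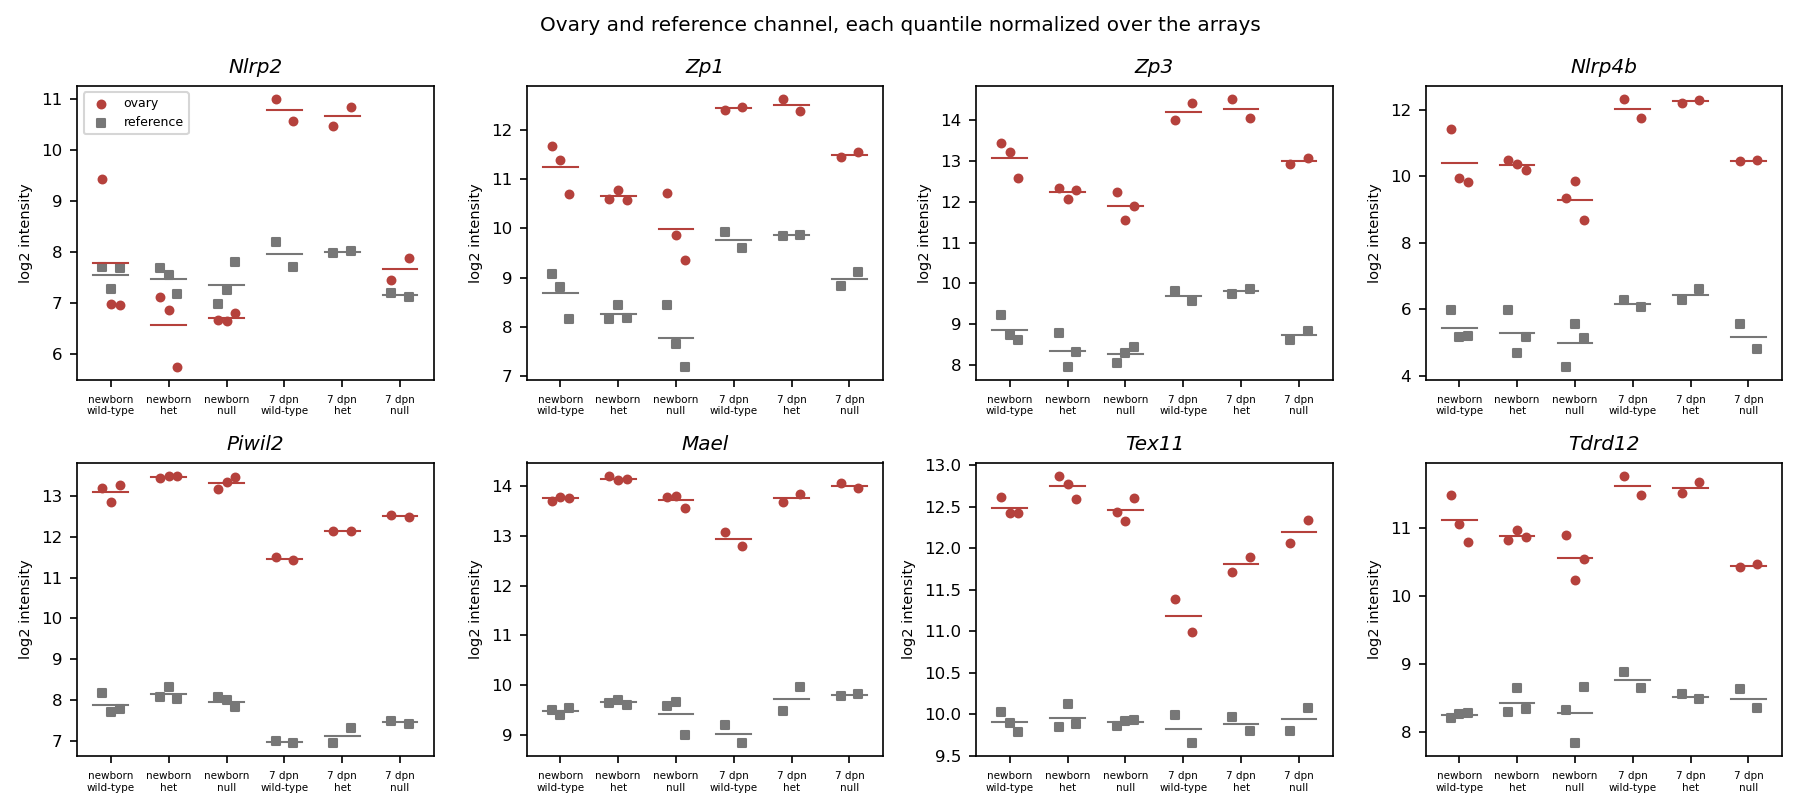
Log2 intensity of the ovary channel (circles) and the reference channel (squares), each quantile normalized over the arrays, in every array by group for 8 members, with bars for group means and vertical scales that differ between genes. For *Zp1*, *Zp3* and *Piwil2* the reference moves with the ovary, for *Nlrp4b* it is well above background on only 6 arrays, and for *Tex11* it spans only 1.38-fold.

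The ovary channel alone gave another set of calls. At 7 dpn, null against wild-type, it called 6 members (2.13% of all probes in that channel): *Mael*, *Piwil2*, *Spata5* and *Tex11* were higher, and *Nlrp2* and *Tdrd12* lower. *Tex11*, *Nlrp2* and *Tdrd12* were also called as ratios, and in that comparison the reference differed by 0.12 for *Tex11*, -0.80 for *Nlrp2* and -0.27 for *Tdrd12*, against 1.01, -3.12 and -1.17 in the ovary channel. *Mael*, a transposon silencing factor, had ovary values of 13.08 and 12.80 in wild-type, 13.69 and 13.84 in heterozygous and 14.05 and 13.97 in null ovaries. It was higher in null ovaries by 1.08 (adjusted p = 0.00207), while its reference was higher by 0.77 and its ratio by 0.094 (adjusted p = 0.829), or 0.51 with normexp (adjusted p = 0.00704) and 1.06 in the series values (adjusted p = 0.00305).

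*Piwil2*, a PIWI protein that binds piRNAs in the fetal and newborn germ line, had ovary values of 13.19, 12.86 and 13.28 in newborn wild-type ovaries, and 11.50 and 11.44 in wild-type, 12.14 and 12.14 in heterozygous and 12.55 and 12.48 in null ovaries of 7 dpn. The genotypes of 7 dpn did not overlap and all lay below the newborns. The null ovaries were higher than wild-type by 1.05 in this channel (adjusted p = 0.00434), while the reference was higher by 0.49 and the ratio by 0.41 (adjusted p = 0.326), or 0.98 with normexp (adjusted p = 0.00017), 0.63 with median centring (adjusted p = 0.0106) and 1.05 in the series values (adjusted p = 0.000465). The dimmer *Piwil2* probe differed as a ratio by 0.029 between these genotypes (adjusted p = 0.917) and by -0.069 with age in wild-type (adjusted p = 0.579). In the ovary channel of the brighter probe the fall with age was -1.64 in wild-type (adjusted p = 0.000334), -1.33 in heterozygous (adjusted p = 0.000778) and -0.81 in null ovaries (adjusted p = 0.0329), where the reference fell by 0.92, 1.01 and 0.50. As a ratio the difference in wild-type was -0.53 (adjusted p = 0.0945), or -0.66 (adjusted p = 0.0272) without newborn wild-type replicate 1, and it was called with median centring, normexp and the series values.

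With age, the ovary channel alone called 9 members in wild-type (2.38% of all probes), 10 in heterozygous (2.31%) and 1, *Piwil2*, in null ovaries (0.485%). In wild-type *Nlrp2* and *Zp3* were higher and *Ddx4*, *Mael*, *Piwil2*, *Spata5*, *Syce2*, *Tdrd1* and *Tex11* lower. In heterozygous ovaries *Nlrp2*, *Nlrp4b*, *Zp1* and *Zp3* were higher and *Piwil2*, *Spata5*, *Stra8*, *Tex11*, *Tex15* and *Tex16* lower. In this channel *Zp3* rose by 1.13 with age in wild-type (adjusted p = 0.0462) and 2.05 in heterozygotes (adjusted p = 0.00213), with reference differences of 0.83 and 1.46, and differed by -1.20 between 7 dpn null and wild-type ovaries (adjusted p = 0.0565), with -0.96 in the reference. *Zp1* rose by 1.85 in heterozygotes (adjusted p = 0.0136), with 1.60 in the reference. The unscaled *Zp3* intensities of the ovary channel were 11717, 8944 and 5513 in newborn wild-type and 18961 and 18918 in 7 dpn wild-type ovaries, beside 8025 and 9476 in 7 dpn null ovaries.

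Several genes that define the germ line passed no test of their ratios. *Nobox* lay between 4.21 and 4.77 on all 15 arrays and *Dazl* between 3.68 and 4.65. *Ddx4* lay between 1.46 and 2.40. None of these 3 genes was called in any of the 11 comparisons of ratios. *Zp1*, *Zp2* and *Zp3* lay between 2.21 and 3.03, 3.23 and 3.96, and 3.31 and 4.93. They were not called as ratios with all arrays and the processing used here, but were under others. Between 7 dpn null and wild-type ovaries *Zp1* differed by -0.32 (adjusted p = 0.255), or -0.53 as the mean of its probes (adjusted p = 0.0112) and -0.54 without 7 dpn wild-type replicate 1 (adjusted p = 0.0387), and *Zp3* by -0.42 (adjusted p = 0.578), or -1.16 in the series values (adjusted p = 0.0265). With age at least 1 of the 3 was called in each genotype in the series values, and *Zp2* in wild-type and heterozygous ovaries without newborn wild-type replicate 1. *Zp2* could be compared at 7 dpn only between 1 wild-type and 1 heterozygous array, since its spots on the other 4 arrays had been marked as outliers. Of the recombination genes *Dmc1* lay between 0.06 and 0.41, and none of *Dmc1*, *Msh4* and *Msh5* was called in any comparison, although *Msh5* was called with age in heterozygous ovaries in a fit to only those arrays and in one without newborn null replicate 2.

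Genes of the same pathways that the family names do not cover were read from lists. These lists were written with earlier results of these data known, so their counts are a description only. Of 21 further genes of the oocyte and follicle formation with a named probe, 7 fell and 1 rose between 7 dpn null and wild-type ovaries. Their median difference was -0.40, and 5.52% of all probes were called. The 7 that fell were *Bmp15*, a growth factor of the oocyte, the oocyte gene *Oog1*, the secreted oocyte protein gene *Oosp1*, the oocyte linker histone *H1f8*, *Padi6* of the egg cortex, *Bcl2l10* and *Rfpl4*, and the oocyte factor *Sohlh2* rose. *Oog1* differed by -3.13 (adjusted p = 0.0151), *Oosp1* by -2.02 (adjusted p = 0.00143), *Rfpl4* by -1.78 (adjusted p = 0.00871), *Bmp15* by -1.62 (adjusted p = 0.00729), *Bcl2l10* by -1.61 (adjusted p = 0.014) and *H1f8* by -1.22 (adjusted p = 0.00199). With 1 array left out, the calls of *Oosp1* and *H1f8* were kept in all 15 fits. That of *Oog1* was lost without any 1 of the 4 arrays compared, that of *Bcl2l10* without null replicate 2 or either wild-type array, those of *Padi6* and *Sohlh2* without 3 of the 4, that of *Rfpl4* without null replicate 1 or wild-type replicate 1 and that of *Bmp15* without null replicate 2. The call of *Oosp1* was also lost in the ovary channel alone and that of *Bcl2l10* with median centring. *Padi6*, at -0.48 (adjusted p = 0.00738), was not called in 5 of the 11 other settings, and *Sohlh2*, at 0.39 (adjusted p = 0.0205), in 2. The mean log2 ratio over the 19 genes measured on every array lay between 2.50 and 2.56 in 7 dpn wild-type, 2.45 and 2.57 in heterozygous and 1.84 and 1.88 in null ovaries. Null arrays were below the others without overlap. Against heterozygous ovaries (2.19% of all probes called) 8 fell, the same 7 and *Mos*. In newborn null against wild-type ovaries (1.62%) *Oog1* and *Padi6* fell. With age in wild-type (8.72% of all probes called) 6 of the 21 rose and 3 fell (*Kit*, *Lhx8* and *Sohlh2*). In heterozygous ovaries (8.31%) 8 rose and 1 fell, and in null ovaries (3.26%) none was called. Of 15 further genes of meiotic prophase none was called between 7 dpn null and wild-type ovaries, with a median of 0.091, and with age in wild-type 3 fell, the cohesins *Smc1b* by 1.13 and *Stag3* by 1.15 and the axis protein gene *Hormad1* by 1.41. These 3 calls were kept with each array left out and lost in a fit to only the wild-type arrays. *Stag3* and *Hormad1* also fell with age in null ovaries, by 1.35 and 1.13, calls lost without 7 dpn null replicate 2 and, for *Hormad1*, also without newborn null replicate 2 or 3 or 7 dpn null replicate 1 and with median centring, and in heterozygous ovaries, where *Hormad1* fell by 1.71 and *Spo11*, which cuts DNA to start recombination, fell as well.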

How the data were processed

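Ovary RNA was set against a common reference on 15 arrays. The authors deposited scanner output, with a processed intensity per spot and channel from Agilent Feature Extraction A.7.5.1 (background subtracted, dyes balanced with LOWESS), and series values, a signal per probe and array, used here as an alternative only. Groups follow the titles. For the 7 dpn samples a label gives the age as birth, whereas titles and methods give 7 dpn, and the methods describe fewer samples at 7 dpn than the 6 labelled. A label names a linear amplification kit, while the methods exclude amplification at 7 dpn.

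Control spots and outlier spots were dropped, the log2 ratio (ovary over reference) was averaged per probe (41006 probes), and each array was fitted by loess (span 0.01) against the mean array. Group means were fitted to the 15 arrays in limma (version 3.58.1, R 4.3.3) with empirical Bayes moderation and Benjamini-Hochberg adjustment, for 11 comparisons. The steps were tested on simulated data. The number of arrays limits the precision. All groups share the same estimate of the spread, so 7 dpn p-values rest on the spread between newborn mice as well as between pools.

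The members and lists were chosen with earlier results of these data known. Named were members of the small families, members called, the 3 of lowest p where under 3 were called, and up to 6 called genes of each other list by size. *Mael*, *Piwil2*, *Zp1*, *Zp3* and the members of widest range in the channels, *Dazl* in heterozygotes, *Spag5* and *Nlrp2* in the interaction, and further list genes were chosen after their values were seen. Alternatives were normexp (offset 50), centring on the median, a loess span of 0.3, the channels alone (quantile normalized), series values, a filter on dim probes, a replicate block, only the arrays compared (for genotypes, all arrays of that age), means over a gene's probes, each array left out, a threshold of 0.01 and, added after seeing the data, a running mean and outlier spots kept. Promoter sequences are from RefSeq (GRCm38.p6).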

Additional observations from a re-analysis of the deposited data

How the results depend on the processing

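Of the 73 single differences recomputed, 1 changed sign, *Dazl* between 7 dpn heterozygous and wild-type ovaries, which was 0.0443 in the ovary channel alone. The channel values themselves were not recomputed. With 1 array left out, the members called ranged from 0 to 10 for 7 dpn null against wild-type, 0 to 0 for heterozygous against wild-type and 0 to 2 for null against heterozygous, in newborns from 0 to 3, 0 to 4 and 0 to 1 for the same pairs, with age from 3 to 15 in wild-type, 2 to 13 in heterozygous and 0 to 3 in null ovaries, and for the interactions from 0 to 4 (null) and 0 to 1 (heterozygous). Fits to only the arrays of the same age gave 2 for 7 dpn null against wild-type, 2 for null against heterozygous and 0 for newborn null against heterozygous. Fits to only the arrays of the same genotype gave 0 for age in wild-type and in null ovaries. A threshold of 0.01 gave 2 for 7 dpn null against wild-type, 0 for null against heterozygous, 0 for newborn null against wild-type and against heterozygous, and 2, 4 and 0 for age in wild-type, heterozygous and null ovaries. Normexp gave 1 for 7 dpn heterozygous against wild-type (*Piwil2*), 3 for null against heterozygous, 0 for newborn null against heterozygous, 15 for age in heterozygous and 3 in null ovaries, and 1 for the null interaction (*Piwil2*). Median centring and the ovary channel alone gave 0 for 7 dpn null against heterozygous and for both newborn null comparisons. The series values gave 2 for newborn null against wild-type (*Zp1* and *Zp3*), 0 against heterozygous, 5 for age in null ovaries and 1 for the null interaction (*Tex11*). Means of all probes of a gene gave 2 for newborn null against wild-type, 0 against heterozygous and 3 for age in null ovaries, and outlier spots kept gave 2 and a span of 0.3 gave 0 for newborn null against heterozygous. The cause of these changes was not tested.

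Replicate numbers are shared between the groups but did not pair the samples: deviations of same-numbered arrays correlated with r from -0.17 to 0.143 over 33 pairs. With the replicate block, the calls of newborn null against heterozygous (0) and of age in null ovaries (0) were lost and no other count moved by over 1.5 times, but the named calls of *Tdrd3* at 7 dpn, of *Spag5*, *Syce2* and *Tex19.2* with age in wild-type and of *Spata5*, *Tdrd3* and *Tex101* with age in heterozygous ovaries were lost. The outlier spots kept and a running mean were chosen after seeing the data. A block for the scan date could not be run, since none was given in the headers used here.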

Other observations

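Of the 20 members with several probes, 8 had probes whose median log2 ratios differed by over 1, and for *Piwil2* they were 5.11 for the brighter and -0.09 for the dimmer probe. The dimmer *Zp1* probe rose by 1.08 with age in wild-type ovaries (adjusted p = 0.0141), where the brightest, given above, differed by 0.21 (adjusted p = 0.335). The dimmer *Tdrd1* probe fell by 1.17 (adjusted p = 0.0253) where the brightest differed by -0.53 (adjusted p = 0.457), and the dimmer *Tex101* probe fell by 1.76 (adjusted p = 0.0149) where the brightest differed by -0.27 (adjusted p = 0.262). Both probes of *Spag5* were higher at 7 dpn in wild-type ovaries, by 0.78 and 0.70, and both of *Tex10* were lower, by 0.29 and 0.39. These probes were chosen after their values were seen.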
